A study of Mus musculus with 3 samples.

Results

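Saa1, Saa2, Saa3, Lcn2, Hp, Slpi and Steap4 are acute-phase and innate defence genes that were detected in tendon cells, and their transcripts were followed through every cell class of the mouse flexor digitorum longus (FDL) tendon. The 7 genes were found by symbol among the 32285 genes counted, and they had been selected on their measured levels in tenocytes of these libraries, so all their values are given as a description and none was tested. There were 3 single-cell RNA sequencing (scRNAseq) libraries, and 16 tendons, female and male, were pooled for each. The 6 M WT library was made from Scx-Cre-; DTR F/+ mice, and the 6 M DTR library from Scx-Cre+; DTR F/+ mice, in which cells that have expressed the tendon transcription factor Scleraxis carry the diphtheria toxin receptor. Both received 5 injections of diphtheria toxin (DT), the labels giving an age of 3 months and the study's methods a harvest at 6 months. The 21 M B6 library came from untreated C57BL/6J mice of 21 months. The comparisons ask how tendon cells that remain after depletion of Scleraxis-lineage cells, and those of old mice, differ from those of young mice. With 1 library per group there were no replicates, and genotype, age, strain, toxin and digestion time (120 min for 6 M WT, 90 min for the others) cannot be told apart from the library. Where 3 values follow each other without a name they stand for 6 M WT, then 6 M DTR, then 21 M B6.

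Acute-phase proteins are made in bulk by the liver when interleukin 6, interleukin 1 and related cytokines act on hepatocytes through the factors STAT3, NF-kappa B and the C/EBP proteins, and many of them can also be made locally by fibroblasts, epithelia and phagocytes. Serum amyloid A proteins (Saa1, Saa2, Saa3) are small lipid-binding apolipoproteins, lipocalin 2 (Lcn2) binds bacterial iron carriers, haptoglobin (Hp) binds free haemoglobin, secretory leukocyte peptidase inhibitor (Slpi) blocks neutrophil serine proteases, and Steap4 is a membrane reductase of iron and copper. In a tendon, tenocytes build and maintain the collagen matrix, while epitenon fibroblasts form its outer layer.

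Saa1 (ENSMUSG00000074115) and Saa2 (ENSMUSG00000057465) lie head to head on chromosome 7, and the sequences before their start sites are printed because UMIs of these neighbours were found in the same cells more often than their single shares would give. The sequences are from RefSeq on build GRCm38.p6, each on the strand of its gene, and cover the 250 bases before the start site. Saa1 is at chr7:46742981-46743230 on the minus strand, Saa2 at chr7:46751583-46751832 on the plus strand and Saa3 (ENSMUSG00000040026) at chr7:46715677-46715926 on the minus strand. Capitals mark every match to TTNNGNAA, a C/EBP motif searched on both strands.
Saa1: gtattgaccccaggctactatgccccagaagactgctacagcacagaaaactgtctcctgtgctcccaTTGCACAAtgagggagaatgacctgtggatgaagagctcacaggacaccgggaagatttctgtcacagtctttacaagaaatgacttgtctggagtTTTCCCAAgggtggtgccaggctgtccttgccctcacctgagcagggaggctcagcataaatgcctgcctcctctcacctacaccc
Saa2: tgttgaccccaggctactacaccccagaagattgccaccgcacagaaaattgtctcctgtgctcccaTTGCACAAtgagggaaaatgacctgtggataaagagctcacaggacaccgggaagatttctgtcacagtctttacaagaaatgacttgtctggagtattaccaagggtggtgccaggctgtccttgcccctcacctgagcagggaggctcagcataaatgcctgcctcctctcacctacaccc
Saa3: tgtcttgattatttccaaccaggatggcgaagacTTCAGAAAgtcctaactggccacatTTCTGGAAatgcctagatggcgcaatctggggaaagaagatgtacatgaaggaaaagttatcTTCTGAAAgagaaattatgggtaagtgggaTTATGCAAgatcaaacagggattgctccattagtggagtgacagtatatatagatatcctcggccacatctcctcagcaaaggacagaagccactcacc
The Saa1 and Saa2 windows were 94.8% identical over an alignment of 251 positions, and Saa1 and Saa3 were 52.2% identical. A match to TTGCACAA began at position -182 of Saa1 and -183 of Saa2, while TTTCCCAA at -86 of Saa1 had no match in Saa2. Saa3 held 4 matches. The motif occurred in 36.8% of all 32851 promoter windows of this length, so a match is a description of these letters and not a binding site. No match to TTCNNNGAA, a STAT motif found in 7.02% of windows, was present in the windows of Saa1, Saa2, Saa3 or Lcn2. The same held for GGGRNNYYCC, the NF-kappa B consensus searched here, found in 7.25% of windows. Other forms of these motifs were not searched, so a missing match does not mean that a site is absent. Steap4 held 1 STAT motif and 2 NF-kappa B matches. The table holds 6 of the 7 genes, and Hp is not among them. The last 150 bases of the longest Saa1 and Saa2 transcripts (GENCODE M21) were 93.3% identical, and since reads of the 3′ kit come from transcript ends, the split of counts between this near-identical pair is uncertain.

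Unique molecular identifiers (UMIs) summed to 148149903, 123918145 and 92707026 over all barcodes. Kept were 8357, 6554 and 4798 cells that had 1000 to 5000 genes and no more than 10% mitochondrial counts, and their median depths lay between 12328 and 13008 UMIs. More than 10% mitochondrial counts were found in 27.6%, 43.1% and 56.5% of all barcodes. Between 61 and 76 barcodes were shared by each pair of libraries, 13 to 15 of them among kept cells. Cells were assigned to classes by the number of marker genes with a UMI, none of them a gene described here. A tenocyte-gated cell had 5 or more of 9 tenocyte markers and passed no other gate, which gave 5146, 2666 and 835 cells (61.6%, 40.7% and 17.4% of kept cells). Of these, 798, 472 and 202 cells had exactly 5 markers. In each library all 9 tenocyte markers reached a level of 5 CPM, that is 5 of every 1000000 summed UMIs, in this class. No gate was passed by 11.4%, 15.4% and 13.4% of kept cells, and 257, 185 and 214 cells passed several.

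Saa1, a serum amyloid A form that circulates on high-density lipoprotein, was measured in tenocyte-gated cells of 6 M WT at 1191 CPM (1182 to 1199, exact 95% Poisson interval). In 6 M DTR it was at 328 CPM (322 to 334), and 21 M B6 had 458 CPM (445 to 471). These intervals, like all others given here, cover counting error only. The ratio to 6 M WT was 0.275 (0.270 to 0.281) for 6 M DTR, while 21 M B6 had 0.385 (0.373 to 0.396). The 6 M WT level was thus the highest, and 21 M B6 stood above 6 M DTR at a ratio of 1.40 (1.35 to 1.45). Saa2, the near-identical neighbour, was at 173, 30.0 and 107 CPM. Its ratio to 6 M WT was 0.173 (0.163 to 0.185) for 6 M DTR, while 21 M B6 had 0.616 (0.578 to 0.656). Saa3 (ENSMUSG00000040026), the form made mainly outside the liver, was at 632, 157 and 357 CPM. The order of the libraries was the same for all 3 Saa genes. For Saa3 the ratio to 6 M WT was 0.248 (0.241 to 0.255) for 6 M DTR, while 21 M B6 had 0.564 (0.545 to 0.583).

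Lcn2 (ENSMUSG00000026822), which withholds iron from bacteria, was at 245, 89.3 and 58.9 CPM in tenocyte-gated cells, so that here 21 M B6 and not 6 M DTR was lowest. The ratios to 6 M WT were 0.364 (0.350 to 0.378) and 0.240 (0.221 to 0.260). Hp (ENSMUSG00000031722), the haemoglobin scavenger, was at 74.4, 49.5 and 62.4 CPM, with ratios to 6 M WT of 0.665 (0.630 to 0.702) and 0.839 (0.771 to 0.912). Red blood cell markers, of which 4 of 4 reached 5 CPM in each library, summed to 1214, 4788 and 1204 CPM in the same cells, and their part in the Hp values was not tested.

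Slpi (ENSMUSG00000017002), the protease inhibitor, was at 27.6, 20.6 and 4.48 CPM, the last from 45 UMIs. Its ratios to 6 M WT were 0.747 (0.685 to 0.814) and 0.163 (0.118 to 0.218). Neutrophil markers, whose cells also make Slpi and Lcn2, summed to 20.3, 1.35 and 0.598 CPM in tenocyte-gated cells. Of the 7 markers, 1, 2 and 4 were at 0, and their part in the Slpi and Lcn2 values was not tested. Steap4 (ENSMUSG00000012428), the metal reductase, was at 293, 101 and 249 CPM. Its ratio was 0.343 (0.331 to 0.356) for 6 M DTR, while 21 M B6 had 0.848 (0.814 to 0.884), so the 6 M DTR library stood apart from the other 2.

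In 6 M DTR, 5 of the 7 genes (Saa1, Saa2, Saa3, Lcn2 and Steap4) were below 0.5 times 6 M WT in tenocyte-gated cells, where 1.62% of 9389 genes were that low. In 21 M B6, 3 of 7 (Saa1, Lcn2 and Slpi) were below 0.5 times, against 3.43% of 9183 genes. None was above 2 times 6 M WT, against 2.85% and 3.43% of genes. Since the genes were chosen with these ratios known, the shares of all genes are a background and nothing is read from the difference. Against 6 M DTR, 21 M B6 was above 2 times for Saa2, Saa3 and Steap4 (3.92% of 9407 genes) and below 0.5 times for Slpi (8.04%). The Saa2 and Saa3 levels rested on few cells. For Saa2, 1 tenocyte gave 150 of the 1065 UMIs of 6 M DTR and 1 gave 185 of the 1070 of 21 M B6. For Saa3, 1 gave 671 of 5558 and 1 gave 401 of 3581. In log2 terms the median ratio of the 7 genes to 6 M WT was -1.54 for 6 M DTR, beside 0.04 over all genes compared, and -0.83 for 21 M B6, beside -0.28. Of 5 markers of hepatocytes, the liver cells that make most acute-phase proteins, 2, 2 and 3 were at 0, and together they summed to at most 0.986 CPM and adipocyte markers to at most 0.299 CPM in tenocyte-gated cells of any library.

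**Figure D1:**
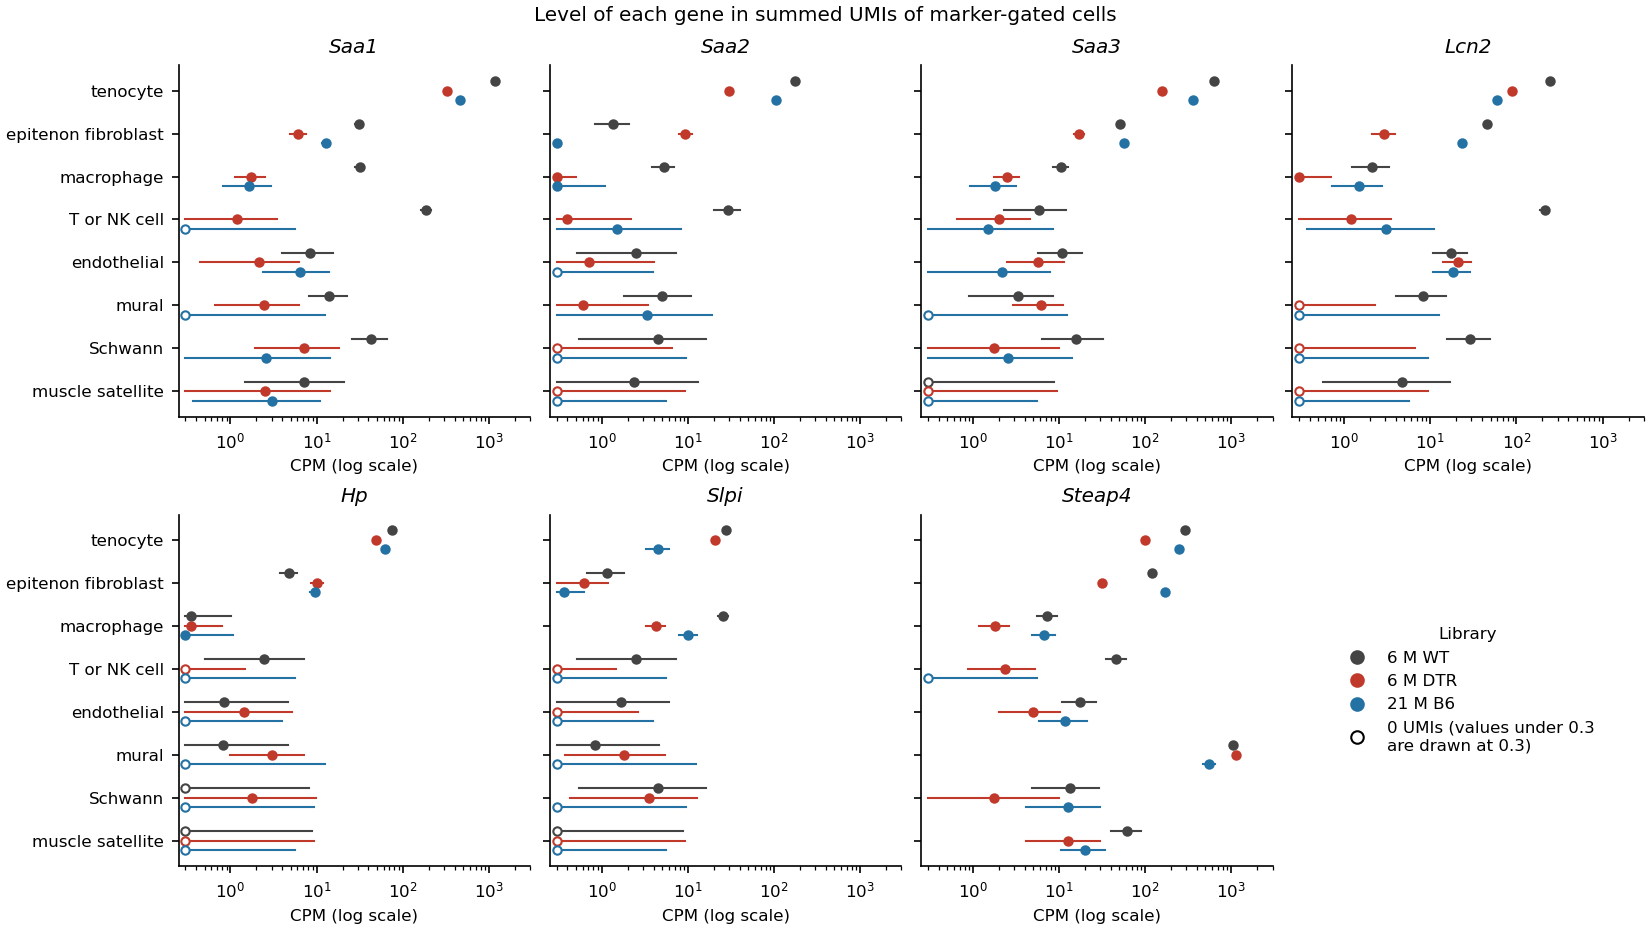
Level of each of the 7 genes (CPM of summed UMIs, log axis, with exact 95% Poisson intervals) in 8 marker-gated classes of the 3 libraries. Points under 0.3 CPM are drawn at 0.3, open where no UMI was counted. Among these classes the Saa genes and Lcn2 stand highest in tenocyte-gated cells and Steap4 in mural cells, and the values of Saa1, Saa2 and Lcn2 in T or NK cells of 6 M WT come almost wholly from 1 cell each.

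The levels of Saa1, Saa2, Saa3, Lcn2, Hp and Slpi rested on a minority of tenocytes and not on all of them. Slpi had so few UMIs (1923, 731 and 45) that they could lie in a minority only, as did Saa2 in 6 M DTR (1065). Steap4 was more widely shared, with a UMI in 52.0%, 29.4% and 45.0% of tenocytes at the full depth of the cells. To remove differences in depth, 2000 UMIs were drawn from each cell. A Saa1 UMI was then found in 17.6% (16.6 to 18.7, exact binomial interval) of tenocyte-gated cells of 6 M WT, against 6.04% (5.16 to 7.01) for 6 M DTR and 8.26% (6.49 to 10.3) for 21 M B6. If every tenocyte of a library had the same rate, 87.7%, 43.2% and 56.7% would have been positive. Without thinning, 28.1%, 9.45% and 12.8% were positive, at median depths of 12974, 12569 and 11264 UMIs. Free RNA can also be captured with cells that lack a transcript, and macrophage-gated cells are given here for comparison. Since phagocytes can make some acute-phase proteins themselves, the macrophage shares are not a pure measure of free RNA. Among macrophage-gated cells 1.76%, 0.0961% and 0.433% had a Saa1 UMI after thinning, at median depths of 16302.5, 13022.5 and 13707 UMIs. Saa3 showed the same picture, with 8.01%, 2.33% and 4.07% of tenocytes positive against 66.2%, 21.3% and 52.1% at an equal rate. In macrophage-gated cells the Saa3 shares were 1.76%, 0.384% and 0% (upper limit 0.795%). Saa2 was found in 4.28%, 1.28% and 2.99% of tenocytes against 27.4%, 4.51% and 20.6%, and in 0.977%, 0% (upper limit 0.354%) and 0.216% of macrophage-gated cells.

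Of all Saa1 UMIs of tenocytes 50% lay in 2.90%, 1.16% and 1.56% of the cells. For Saa3 the cells that held 50% were 1.28%, 0.263% and 0.958%, and in the highest single cell of 6 M WT 1191 Saa3 UMIs were counted. The highest Saa1 cell, also of 6 M WT, had 1032 UMIs. For Saa2, 50% of the UMIs lay in 0.661%, 0.225% and 0.599% of tenocytes. The top 10% of tenocytes held 91.1%, 100% and 99.5% of Saa1 UMIs. The median tenocyte had 0 UMIs of Saa1, Saa2, Saa3, Lcn2, Hp and Slpi in each library, and outside its top 10% of cells Saa1 was at 120, 0 and 2.57 CPM.

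Lcn2 was spread over somewhat more cells than Saa2 and Saa3, with 11.7%, 4.76% and 5.75% of tenocytes positive against 31.6%, 12.3% and 11.3% at an equal rate, and 0.781%, 0.0961% and 0.433% of macrophage-gated cells. Hp was found in nearly the same share of tenocytes in every library, 7.48% (6.78 to 8.23), 7.50% (6.53 to 8.57) and 7.19% (5.53 to 9.15), against 14.2%, 10.6% and 11.2% at an equal rate. No macrophage-gated cell had an Hp UMI after thinning, with upper limits of 0.718%, 0.354% and 0.795%. Steap4 was the most widely shared of the 7, in 24.6%, 10.9% and 24.6% of tenocytes against 41.9%, 17.2% and 37.6%, with 1.37%, 0.192% and 1.3% of macrophage-gated cells. Its top 10% of cells held 63.0%, 77.7% and 63.4% of its UMIs. The median tenocyte of 6 M WT had a Steap4 level of 53.3 CPM, while those of 6 M DTR and 21 M B6 had 0. Slpi was found in 1.71%, 1.28% and 0.958% of tenocytes, against 4.11%, 3.79% and 1.78% at an equal rate, and in macrophage-gated cells in 0.391%, 0.768% and 0.649%. In 6 M WT these were 88 of 5146 tenocytes and 2 of 512 macrophages, with intervals of 1.37 to 2.1 and 0.0473 to 1.40. In 6 M DTR (0.885 to 1.78 and 0.332 to 1.51) and 21 M B6 (0.415 to 1.88 and 0.134 to 1.89) the intervals overlapped more widely, and the difference was not tested. The Slpi interval of tenocytes of 21 M B6 also holds its equal-rate share. Thinning lowers all these shares. Without it a Steap4 UMI was found in 52.0% of tenocytes of 6 M WT and 29.4% of those of 6 M DTR. For Lcn2 these shares were 26.6% and 11.7%, and for Hp 17.3% and 19.4%.

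More than 50% of the UMIs lay in 10% of tenocytes for 7 of 7 genes in each library. Of genes that reached 50 CPM this held for 5.64%, 4.82% and 7.81%. It held for 53.7%, 54% and 61.8% of genes with at least 5 CPM, because few UMIs can lie in few cells only, so for Slpi, and for Saa2 and Hp of 6 M DTR, which lay under 50 CPM, the larger shares are the background. Tenocyte matrix genes differed among themselves in this measure. Chondroadherin (Chad) had 27.6%, 36.7% and 38.1% of its UMIs in the top 10% of cells and fibromodulin (Fmod) 24.0%, 28.1% and 23.7%. Both are markers of the tenocyte gate, so cells entered the class partly by holding their UMIs, which favours an even spread. Coch, which is not a gate marker, had 34.6%, 82.6% and 53.6%, in 6 M DTR more than the 77.7% of Steap4.

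**Figure D2:**
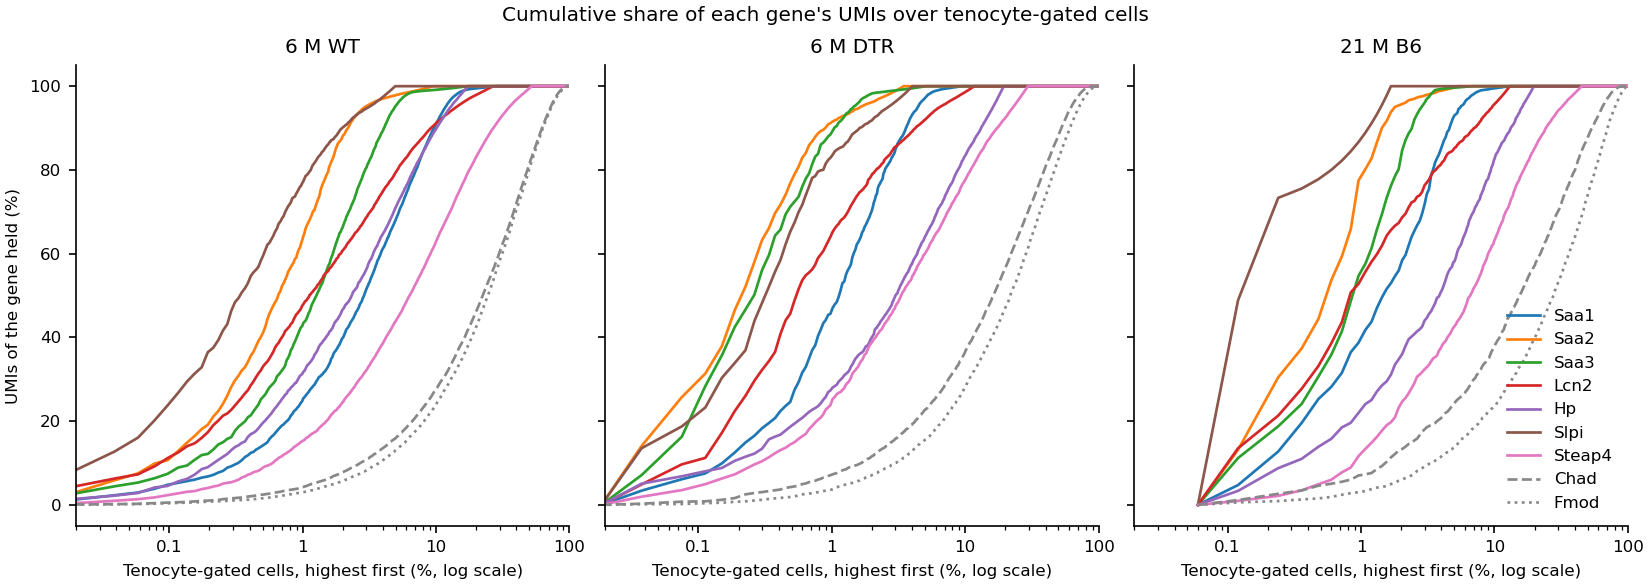
Cumulative share of each gene's UMIs (percent) against tenocyte-gated cells ranked from the highest level down (percent of cells, log axis), 1 panel per library, with the matrix genes Chad and Fmod in grey. The 7 genes climb far to the left of Chad and Fmod in all 3 panels. Of the Saa1 UMIs of 6 M WT 50% lie in 2.90% of cells, and Steap4 is the most widely spread of the 7. Chad and Fmod are markers of the tenocyte gate, so cells entered the class partly by holding them, which favours an even spread. Coch, which is not a gate marker, is not drawn.

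**Figure D3:**
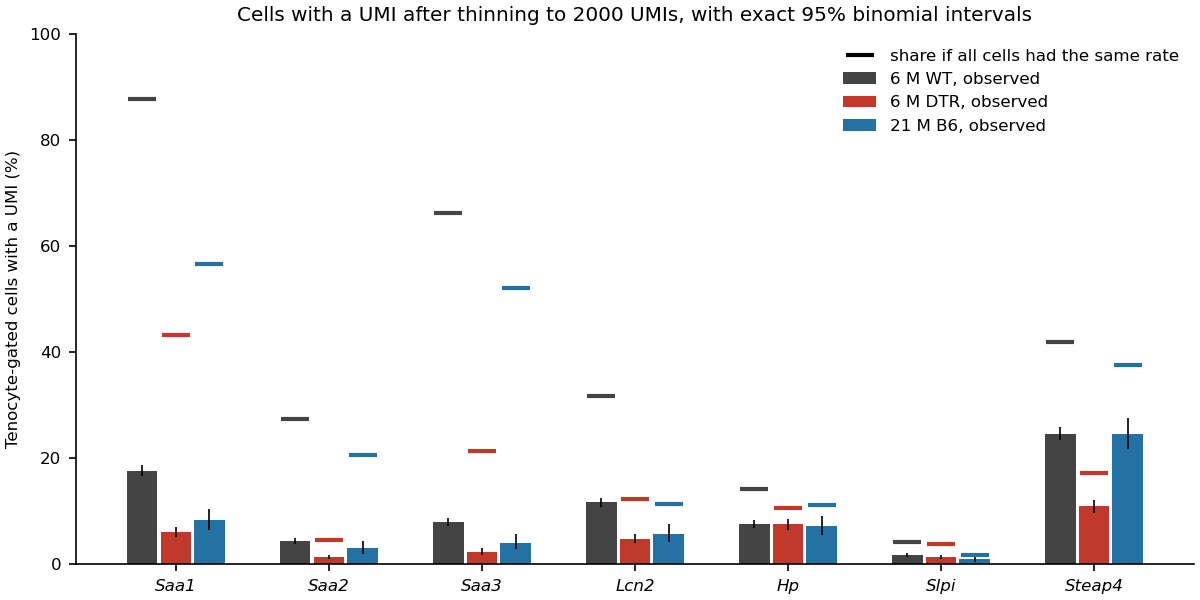
Share of tenocyte-gated cells with at least 1 UMI after thinning to 2000 UMIs (bars, percent, with exact 95% binomial intervals) in the 3 libraries, and the share that would be positive at the same level if all cells had an equal rate (dashes). The bars lie below the dashes throughout, as for Saa1 of 6 M WT (17.6% against 87.7%).

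In 6 M DTR the share of positive tenocytes fell more than the mean count of positive cells for Saa1, Saa2, Saa3, Lcn2 and Steap4. A positive cell has at least 1 UMI, so at low counts a lower rate in all cells also lowers the share more than the mean. For Steap4 the equal-rate shares were 41.9% in 6 M WT and 17.2% in 6 M DTR. Positive cells of Steap4 and Lcn2 had mean thinned counts of 1.73 to 3.26 UMIs in these 2 libraries. For these genes fewer expressing cells and less per cell therefore cannot be told apart by these values. The means were higher for Saa1 (11.9 in 6 M WT and 9.35 in 6 M DTR) and Saa3 (13.6 and 10.3). Without thinning, a Saa1 UMI was found in 28.1% and 9.45% of tenocytes. For the Saa genes the question was not tested. For Saa1 the share of positive tenocytes was 0.343 times that of 6 M WT, and the mean thinned UMI count of the positive cells 0.785 times. For Saa3 these were 0.290 and 0.759 times, for Lcn2 0.409 and 0.845 times, and for Steap4 0.442 and 0.785 times. Saa2 had a lower share of positive cells (0.298 times) and also a lower mean in them (0.483 times). Hp was the opposite case, with a share of positive cells 1.00 times and a mean 0.726 times that of 6 M WT. In 21 M B6 the Saa3 share was 0.509 times and the mean 1.33 times that of 6 M WT, and for Saa1 these were 0.469 and 0.849 times.

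Most of the tenocyte-gated cells could be called female (Xist and no Y gene UMI) or male (the reverse), and all 3 pools held both. Saa3 was at 775 CPM in female-called and 286 CPM in male-called tenocytes of 6 M WT, at 92.0 and 194 CPM in 6 M DTR, and at 423 and 367 CPM in 21 M B6. Its ratio of 6 M DTR to 6 M WT was 0.119 (0.112 to 0.126) in female-called and 0.679 (0.649 to 0.710) in male-called cells. These rested on few cells of 6 M DTR, 51 female-called and 63 male-called with a Saa3 UMI before thinning. There 1 cell gave 330 of 1131 female-called UMIs and 1 cell gave 671 of 3332 male-called UMIs. Lcn2 was at 288 and 165 CPM in 6 M WT and at 19.8 and 135 CPM in 6 M DTR, which gave ratios of 0.0686 (0.0602 to 0.0779) and 0.814 (0.769 to 0.861). Saa1 and Steap4 showed no such spread between the calls, with Saa1 ratios of 0.278 and 0.30 and Steap4 ratios of 0.294 and 0.370. Among male-called cells 3 of the 7 genes (Saa1, Saa2 and Steap4) were below 0.5 times 6 M WT in 6 M DTR (2.13% of 9457 genes) and Slpi was above 2 times (3.09%). Among female-called cells 6 were below 0.5 times (1.57% of 9361 genes). Female-called cells were 61.1%, 32.7% and 45.1% of kept cells. With 1 pool per group, differences between the sexes cannot be told apart from differences between the animals pooled.

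**Figure D4:**
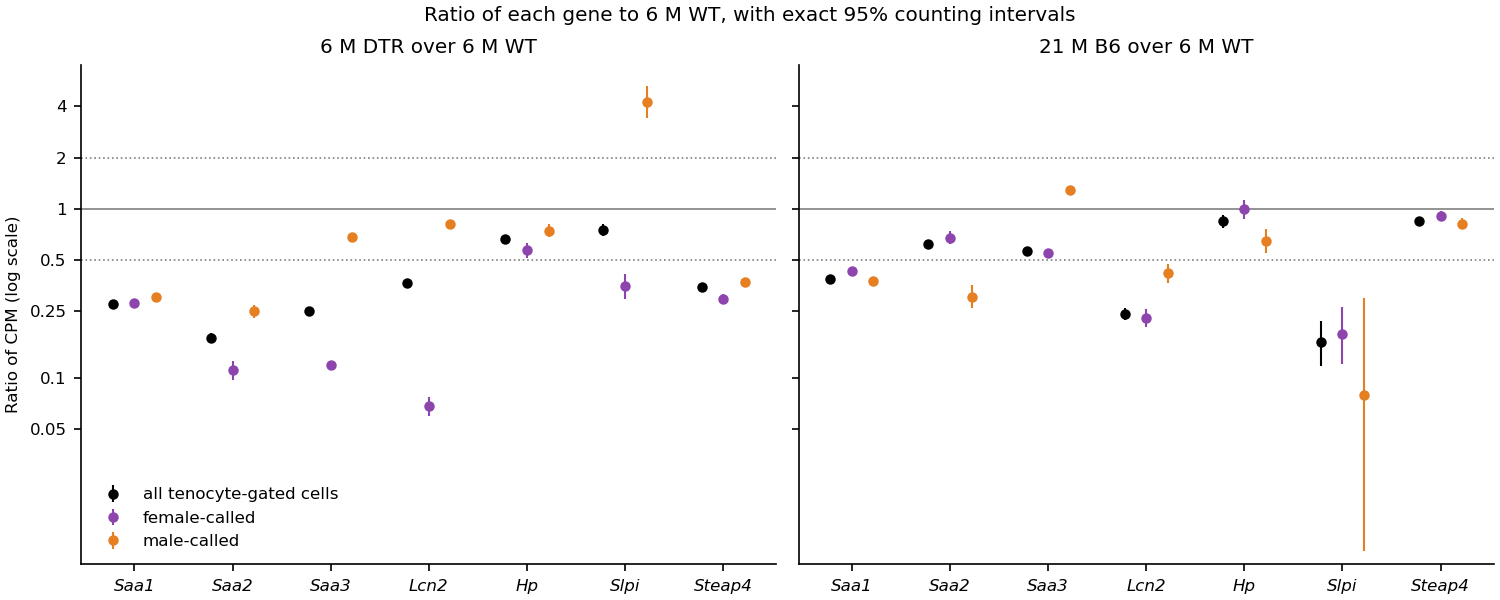
Ratio of each gene's CPM in tenocyte-gated cells to that of 6 M WT (log axis, exact 95% counting intervals) for all cells and for female-called and male-called cells. Saa1, Saa2 and Steap4 lie below 0.5 in all 3 sets for 6 M DTR, while Lcn2 reads 0.0686 in female-called and 0.814 in male-called cells.

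Tenocytes were also split by Coch, the gene of the matrix protein cochlin, a split chosen after its values were seen. Tenocytes with a Coch UMI after thinning were 80.0%, 26.4% and 56.2% of the class. Among macrophage-gated cells 12.3%, 2.69% and 2.16% had one, so some tenocytes counted with Coch may hold free RNA only, in a number that was not tested. Saa1 was found in 19.0% of tenocytes with Coch and 12.3% of those without in 6 M WT, in 9.66% and 4.74% in 6 M DTR, and in 8.96% and 7.38% in 21 M B6. The Saa1 level was 1299, 587 and 374 CPM with Coch and 730, 227 and 552 CPM without, so that in 21 M B6 the level was higher without Coch although the share of positive cells was not. It was lower in 6 M DTR than in 6 M WT within both sets. In 21 M B6 only 42 cells with Coch and 27 without had a Saa1 UMI after thinning. Hp was found with and without Coch in 8.91% against 1.75% of tenocytes in 6 M WT and 11.7% against 1.37% in 21 M B6, but in 9.52% against 6.78% in 6 M DTR.

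Cells that passed no gate also held these transcripts. Saa1 was at 678, 55.1 and 104 CPM in them, and 1 cell gave 778 of the 6926 UMIs of 6 M WT. Lcn2 was at 380, 47.0 and 18.1 CPM, in 6 M WT above the 245 CPM of tenocyte-gated cells. Saa3 was at 571, 210 and 74.8 CPM, in 6 M DTR above the tenocyte-gated cells, where 1 cell gave 1184 of 2436 UMIs. The levels are therefore not confined to the gated tenocytes. Cells without a gate may include tenocytes that missed the cut, as 313, 254 and 118 kept cells were 1 marker below it. How many of the cells without a gate are tenocytes was not tested.

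Saa2 was at 1.34, 9.32 and 0.0845 CPM in epitenon-gated cells, and 1 cell gave 134 of the 135 UMIs of 6 M DTR. Hp was at 4.79, 10.2 and 9.46 CPM, and 1 cell gave 23 of the 75 UMIs of 6 M WT and 1 cell 49 of the 148 of 6 M DTR. Saa3 was at 51.4, 17.1 and 56.8 CPM in epitenon-gated cells. There 1 cell gave 359 of the 806 UMIs in 6 M WT, and 1 cell gave 220 of the 248 UMIs in 6 M DTR. Lcn2 was at 45.6, 2.90 and 23.3 CPM, a ratio to 6 M WT of 0.0635 (0.0454 to 0.0868) in 6 M DTR. Steap4 was at 120, 31.7 and 172 CPM. Epitenon-gated cells were 48.6% of kept cells in 21 M B6 against 11.5% in 6 M WT, and they held 49.8% of the Lcn2, 58.0% of the Steap4 and 32.8% of the Saa3 UMIs of 21 M B6, and 3.15%, 6.87% and 1.54% of those of 6 M WT. Per 1000 UMIs of the tenocyte markers, Saa3 stood at 153, 71.0 and 447 in epitenon-gated and at 43.1, 9.81 and 24.6 in tenocyte-gated cells. Saa1 stood at 92.2, 25.2 and 99.9 against 81.0, 20.5 and 31.5, and Saa2 at 4.00, 38.7 and 0.665 against 11.8, 1.88 and 7.34. The part of free RNA in these counts was not tested.

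Steap4 was highest in mural cells, the contractile cells around vessels, at 1044, 1118 and 549 CPM. It was found in 50.0%, 57.6% and 26.5% of 144, 191 and 34 mural-gated cells. Unlike in tenocytes, its mural level in 6 M DTR was not below that of 6 M WT. In 6 M DTR the mural-gated cells held 26.3% of all Steap4 UMIs. The other 6 genes were at 14.1 CPM or less in mural-gated cells of each library.

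Slpi was highest in few neutrophil-gated cells. In 6 M WT 27 such cells stood at 8552 CPM and held 27.1% of all Slpi UMIs of kept cells. Cells of 6 M WT that passed no gate held 30.1% of them, at 155 CPM, and 1 cell gave 352 of these 1583 UMIs. Lcn2 was at 1122 CPM in the 27 neutrophil-gated cells, which held 0.823% of its UMIs. The gate found 1 such cell for 6 M DTR and 2 for 21 M B6, so no level is compared. In macrophage-gated cells of 6 M WT 1 cell gave 213 of 221 Slpi UMIs and 1 gave 207 of 273 Saa1 UMIs. Single cells likewise gave 256 of 259 Lcn2 UMIs and 212 of 224 Saa1 UMIs in T or NK cells of 6 M WT. Whether these single cells are doublets was not tested.

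Transcripts of the 7 genes were found in fewer cells than independence would give. In 6 M WT 47.1% of thinned tenocytes had a UMI of at least 1 of them, where the single shares would give 56.1% if the genes were independent. The shares were 25.4% against 29.8% in 6 M DTR and 41.0% against 44.2% in 21 M B6. At least 3 of the genes were found in 6.74%, 1.73% and 2.51% of tenocytes against 2.63%, 0.280% and 0.871%. No cell held all 7 in any library. The expectation takes each gene's share as equal in all cells of a library, which are all of 1 depth after thinning.

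Saa1 and Saa2 were found together 4.00, 9.25 and 6.29 times as often as independence would give (155, 19 and 13 cells), the highest of the 21 pairs in both young libraries, while in 21 M B6 Saa2 with Saa3 stood at 6.88 times (7 cells). Reads that fall to the wrong gene of this near-identical pair would give the same, and their part was not tested. Saa1 and Saa3, which are not near-identical, were together 2.64, 5.61 and 2.49 times as often (192, 21 and 7 cells), and Saa3 and Lcn2 2.31, 5.42 and 1.53 times (111, 16 and 3 cells). Saa1 and Hp were together 0.737 times as often in 6 M WT (50 cells) and 0.202 times in 21 M B6 (1 cell), but 1.90 times in 6 M DTR (23 cells). The counts of 21 M B6 are too low to order its pairs.

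**Figure D5:**
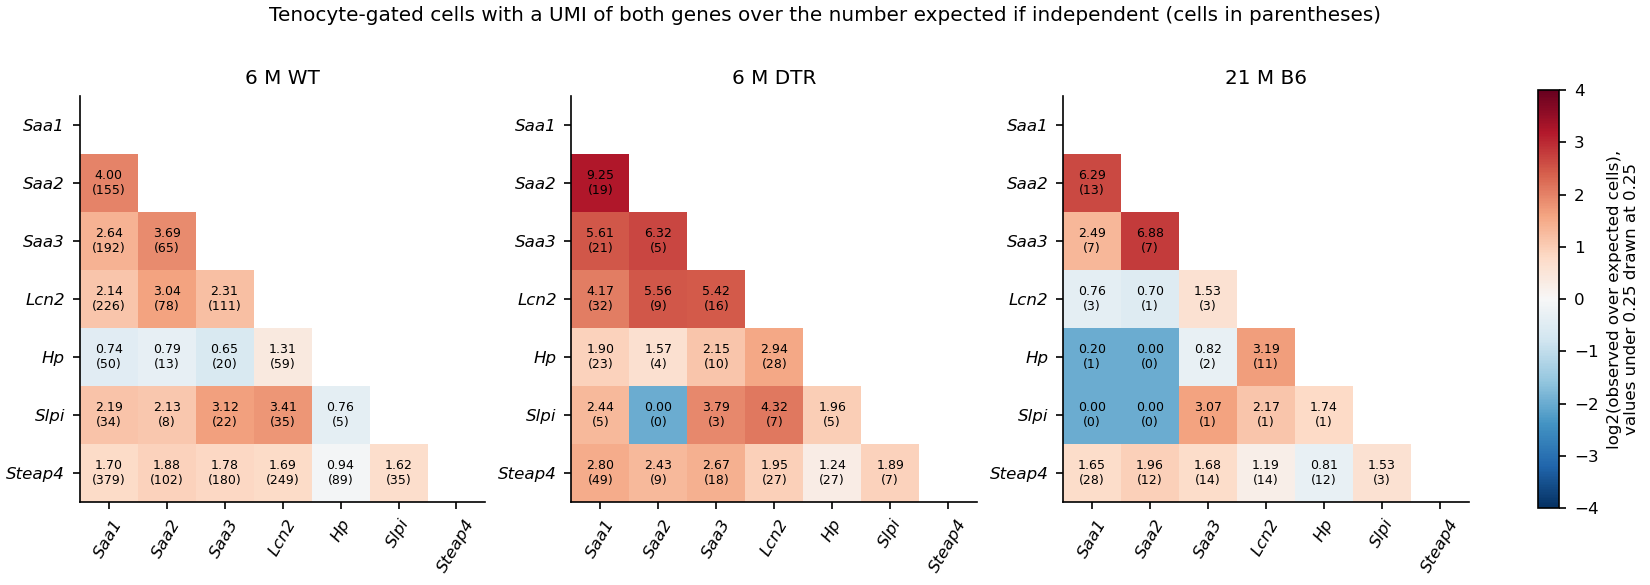
Tenocyte-gated cells with a UMI of both genes of a pair after thinning to 2000 UMIs, as the number observed over the number expected if the genes were independent (colour on a log2 scale, cells in parentheses), 1 panel per library. Saa1 with Saa2 stands at 4.00, 9.25 and 6.29, and in 6 M WT the Hp row holds values under 1 for Saa1, Saa2 and Saa3.

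Cells with the most transcripts of the 7 genes put over 1% of their UMIs into them: 347, 41 and 31 tenocytes (6.74%, 1.54% and 3.71%). The 10% of tenocytes with the highest summed level had a median depth of 14866 UMIs against 12795 in the rest of 6 M WT, 14163 against 12375 in 6 M DTR and 11854 against 11117 in 21 M B6. Neutrophil markers summed to 11.7, 1.23 and 0.900 CPM in the top 10% and 21.4, 1.37 and 0.560 CPM in the rest. Macrophage markers summed to 16.5, 22 and 29.7 CPM in the top 10% and 18.5, 35.0 and 22.5 CPM in the rest. Over all tenocyte-gated cells the neutrophil markers had 1415, 48 and 6 UMIs, and the macrophage markers 1277, 1189 and 234. The neutrophil counts of 6 M DTR and 21 M B6 are too low to give a direction. Macrophage markers were lower in the top cells of 6 M WT and 6 M DTR and higher in those of 21 M B6, which was not tested. Among the 6% of cells with the highest doublet scores of 6 M WT were 5.44% of the top cells and 5.85% of the rest. Dissociation response genes summed to 5788, 10034.5 and 12330 CPM in the top 10% and 8328, 11406.5 and 18161 CPM in the rest.

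Other genes of the acute-phase response were looked at in lists. Beside every list count stand the shares of all genes compared, 1.62% below 0.5 times and 2.85% above 2 times 6 M WT in 6 M DTR, and 3.43% each way in 21 M B6. Of 23 other acute-phase proteins, 8 had at least 5 CPM in tenocytes, of which 1 was below 0.5 times 6 M WT in 6 M DTR and none above 2 times, while in 21 M B6 1 was below and 2 above. Complement C3 (C3) was at 347, 145 and 404 CPM, a ratio of 0.418 in 6 M DTR. Lbp, which carries bacterial lipopolysaccharide, was at 641, 508 and 319 CPM, a ratio of 0.498 in 21 M B6. The metallothioneins Mt1 and Mt2, which bind zinc and copper, stood at 2.45 and 2.49 times 6 M WT in 21 M B6 and at 0.691 and 0.580 times in 6 M DTR. The direction of 21 M B6 was therefore not shared over the acute-phase genes, with the metallothioneins above 6 M WT and the Saa genes and Lcn2 below it.

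Of 10 inducing cytokines 4 reached 5 CPM, of which 2 were below 0.5 times in 6 M DTR, and in 21 M B6 3 were below and 1 above 2 times. Of the lower ones, named after their values were seen, Tnf was at 11.2, 7.72 and 3.19 CPM and Il1b at 10.8, 4.54 and 0.598 CPM in tenocytes, and macrophage-gated cells had 3784, 2081 and 1476 CPM of Tnf and 933, 848 and 196 CPM of Il1b. The part of macrophage RNA in the tenocyte values was not tested. Lif was at 26.9, 7.80 and 11.2 CPM in tenocytes and at 11.1, 10.5 and 3.60 CPM in macrophages. Il6, the main inducer of the liver response, was at 107, 73.6 and 366 CPM, and its ratio in 21 M B6 was 3.40. Epitenon-gated cells had 398, 175 and 930 CPM of Il6, and the part of their RNA in the tenocyte values was not tested. Of 9 cytokine receptors 1 was below 0.5 times in 6 M DTR, Lifr, the receptor of leukaemia inhibitory factor, at 0.482 times, and none passed either limit in 21 M B6. Of 14 transcription factors and feedback genes none passed in 6 M DTR and 4 were above 2 times in 21 M B6, namely Cebpd (2.12), Socs3, the inhibitor of STAT3 signalling (2.75), Bcl3 (2.47) and Irf1 (2.28). The median log2 ratio of this list was -0.45 for 6 M DTR, and for 21 M B6 it was 0.33.

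Of 12 receptors and carriers of the 7 proteins 5 reached 5 CPM for the 6 M DTR ratio and 4 for that of 21 M B6, and Tlr2, which senses serum amyloid A among other ligands, was at 439, 139 and 188 CPM, with ratios of 0.316 and 0.428. None of 10 iron and copper genes passed either limit in either library, and 1 of 8 neutrophil granule partners reached 5 CPM and was below 0.5 times in both. Of 15 dissociation response genes 7 were above 2 times 6 M WT in 21 M B6 and none in 6 M DTR. The largest of these ratios were those of the heat shock genes Hspa1a (14.5) and Hspa1b (14.2), and Hsp90aa1 (3.03), Fos (2.81), Dnajb1 (2.50), Atf3 (2.32) and Hspa8 (2.19) followed. The list had a median log2 ratio of 0.35 for 6 M DTR, and of 0.98 for 21 M B6, and its part in the other lists was not tested.

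Over 20 pairs of class and library with at least 50 cells, the genes whose level was most like that of Saa1 were Saa2 (Pearson r = 0.94 of log2(CPM + 10)), Coch (0.93), Mmp3, Fmod and Cilp2 (each 0.88). For Saa3 they were Pla2g5 (0.97), Fbln1 (0.97), Il33, Aldh3a1 (both 0.96) and Itgbl1 (0.95), and for Lcn2 Chil1 (0.88), Saa1 (0.87), Nos2 (0.82), Saa2 (0.77) and Coch (0.75). These points share libraries and classes and are no replicates. Fmod and Cilp2 are markers of the tenocyte gate, which favours their likeness to any gene that is high in that class. The point of T or NK cells of 6 M WT rests on single cells, which gave 256 of 259 Lcn2 UMIs and 212 of 224 Saa1 UMIs. Across single tenocytes the mean r over the 3 libraries was weak, 0.38 for Saa1 with Saa2, 0.28 with Sod2, 0.26 with Slc39a14, 0.24 with Mt2 and 0.23 with Gbp2. Saa3 was nearest to Saa1 (0.22), Lcn2 and Sod2 (0.20 each), Saa2 (0.17) and Steap4 (0.16), and Lcn2 to C3 (0.31), Cfb (0.21), Nos2, Saa3 and Fth1 (0.20 each).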

How the data were processed

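Single-cell RNA-seq of FDL tendons was analysed for 3 libraries, 1 per group. The authors counted UMIs per gene and barcode from 10x Chromium 3′ libraries (Cell Ranger 6.0.1 per the file headers) and deposited the raw counts without normalization. Which genome build and annotation they used is not given in the sources used here. The members and lists were chosen with earlier results of these data known. Kept cells had 1000 to 5000 genes and a mitochondrial share of 10% or less. Classes were set by the number of fixed markers with a UMI, with cut-offs set after the markers' distributions were seen. Counts were summed per class and library and given as CPM. Shares of positive cells were taken from 2000 UMIs drawn per cell, which left out 9, 5 and 1 kept cells. Intervals are exact (Poisson, binomial, or conditional for ratios) at 95%. No test was made, as each group is 1 library. Doublets were kept, since Scrublet's automatic threshold called 2, 7 and 1 cells and so did not work. In an alternative the 6% of cells with the highest scores were left out. Ratios and shares in top cells were checked on simulated data. For the ratios, summed counts were drawn with Poisson error only, without the differences between cells that the 7 genes show. That check therefore covers counting error alone. Genes named by rule beside the members were those of the lists with at least 50 CPM and a ratio over 2 or under 0.5, and the 5 most like Saa1, Saa3 and Lcn2. Outside that rule, Tnf, Il1b, Lif and the genes compared between the top 10% of tenocytes and the rest were named after their values were seen. Chad, Fmod and Coch were named as matrix genes, and Chad and Fmod are also markers of the tenocyte gate. Alternatives changed the filter, gate, sex, depth, scaling (TMM, edgeR 4.0.16 in R 4.3.3) and minimum level. Python 3.11.15, scanpy 1.11.5, matplotlib 3.10.9, scipy 1.17.1 and numpy 2.4.6 were used.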

Additional observations from a re-analysis of the deposited data

Results flagged for a closer look

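Some ratios to 6 M WT ran in opposite directions in 2 cell classes of the same libraries, which was not tested. In epitenon-gated cells of 6 M DTR Saa2 stood at 6.95 times 6 M WT (0.173 in tenocyte-gated cells), with 134 of its 135 UMIs in 1 cell, and Hp at 2.13 times (0.665 in tenocytes). In epitenon-gated cells of 21 M B6 Saa3 stood at 1.10, Hp at 1.98 and Steap4 at 1.43 times 6 M WT, against 0.564, 0.839 and 0.848 in tenocyte-gated cells. The Saa3 and Hp ratios rest partly on single epitenon-gated cells of 6 M WT, which gave 359 of 806 Saa3 UMIs and 23 of 75 Hp UMIs. In 6 M DTR 1 such cell gave 49 of 148 Hp UMIs.

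Between female-called and male-called tenocytes the direction of 2 ratios differed, also not tested. Slpi in 6 M DTR was 4.25 times 6 M WT (3.44 to 5.31) in male-called and 0.348 times in female-called cells, from 486 and 104 UMIs in male-called cells of 6 M DTR and 6 M WT. These UMIs lay in 50 and 35 cells, and 1 cell of 6 M DTR gave 99 of them. Female-called cells of 6 M DTR had 161 Slpi UMIs in 40 cells. Saa3 in 21 M B6 was 1.28 times 6 M WT in male-called and 0.546 times in female-called cells. In 21 M B6 only 21 male-called and 18 female-called tenocytes had a Saa3 UMI. There 1 cell gave 233 of 1383 male-called UMIs and 1 gave 401 of 1724 female-called UMIs. In male-called cells of 6 M WT 1 cell gave 463 of 4471.

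Barcodes that the gene limit removed held Slpi in 6 M WT. Among 2163 barcodes with under 1000 genes and at most 10% mitochondrial counts Slpi was at 327 CPM, against 46.3 CPM in kept cells, and neutrophil markers summed to 3223 CPM against 135 CPM. At least 3 neutrophil markers were found in 138 barcodes of 6 M WT, 2 of 6 M DTR and 3 of 21 M B6.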

How the results depend on the processing

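Of the counts of members past a limit, 99 stayed within 1.5 times and 2 did not. With male-called cells alone, 3 members were under 0.5 and 1 over 2 times 6 M WT in 6 M DTR, and the ratio of Slpi became 4.25, that of Saa3 in 21 M B6 1.28, and the list medians (log2) 0.062 for iron and copper genes in 6 M DTR and -0.24 for other acute-phase proteins in 21 M B6. With Coch-positive tenocytes, an alternative chosen after seeing the data, Slpi in 6 M DTR became 1.02 and Hp in 21 M B6 1.17. Other list medians changed sign with no CPM minimum (other acute-phase proteins 0.32 for 6 M DTR, -0.28 for 21 M B6), at 50 CPM (iron and copper 0.10 and 0.053, inducing cytokines 1.77 in 21 M B6) and with TMM scaling (receptors and carriers 0.026 in 21 M B6). Of the inducing cytokines only Il6 reached 50 CPM, so the 1.77 is the value of this gene alone. Over all alternatives the 6 M DTR ratio ran from 0.256 to 0.452 for Saa1, 0.112 to 0.309 for Saa2, 0.119 to 0.679 for Saa3, 0.0686 to 0.814 for Lcn2 and 0.294 to 0.500 for Steap4. The causes were not tested. Of single-gene and list values 663 stayed within their limits, 268 moved past them and 12 reversed. Each pool is 1 library, so no spread between animals is known. No paired analysis was possible because each group holds 1 library.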

Other observations

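Beyond the genes above, 2200 genes were compared between the 10% of tenocytes with the highest summed level of the 7 genes and the other 90%. Each had at least 50 CPM in the top 10% or in the other 90% of every library. A gene could thus enter through the top cells alone, which favours high ratios. The genes named here were chosen by hand, after their values were seen, from the 20 with the largest lowest ratio over the 3 libraries. Il6, the inducer of acute-phase genes in liver, was 4.51, 5.30 and 2.95 times as high in the top cells, in the order 6 M WT, then 6 M DTR, then 21 M B6. The matrix protease Mmp3 was 6.38, 6.34 and 2.63 times, its inhibitor Timp1 3.22, 3.80 and 2.65 times, and the prostaglandin synthase Ptges 2.81, 3.19 and 3.17 times as high. The guanylate-binding proteins Gbp6, Gbp5 and Gbp2, which interferon induces, were at 3.76, 3.96 and 2.54 times in 6 M WT. The chemokine Ccl2 was 2.41, 2.68 and 2.37 times and complement factor B (Cfb) 4.32, 2.69 and 2.29 times as high.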
